A study of Mus musculus with 11 samples.

Results

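The testis-specific serine kinases (TSSK) are encoded in the mouse by *Tssk1*, *Tssk2*, *Tssk3*, *Tssk4*, *Tssk5* and *Tssk6*. These genes were chosen by symbol, through the Ensembl gene identifiers of the count files, and not by any measured value. All 6 were present among 22259 genes counted, and all 6 were among the 15139 genes that passed the filter on low counts. RNA-seq had been carried out on whole adult testes that were untreated, with 3 *Ccer1*+/+ and 3 *Ccer1*-/- libraries, to learn how transcript levels change when CCER1, a nuclear protein of spermatids, is lost. The *Ccer1*-/- mice carry frameshift deletions in the coding sequence, made by CRISPR-Cas9 in fertilized eggs of C57BL/6J mice and bred further on that strain. Several mutant lines exist, of which a single line was selected for the study of pathology, and the study's text does not name the line behind these libraries. The *Ccer1*+/+ mice are the wild type controls. The study's text gives 3 samples of each genotype and no further detail of their origin, so the p values below measure the spread between these samples.

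TSSK proteins are kinases of the calcium/calmodulin-dependent kinase group whose expression in the mouse is largely limited to germ cells after meiosis, when round spermatids elongate, condense their chromatin and build the flagellum. TSSK1 and TSSK2 bind and phosphorylate the scaffold protein TSKS, and male mice that lack both are infertile. TSSK4 phosphorylates ODF2, a protein of the outer dense fibers of the sperm tail, and TSSK6 needs the chaperone HSP90 and the co-chaperone TSACC for activity and is required for male fertility in the mouse.

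*Tssk1* and *Tssk2* lie side by side on the same strand, and their sequences show how close the pair is, which bears on how well their counts can be told apart. In GRCm38, *Tssk1* (ENSMUSG00000041566) occupies chr16:17894203-17895653 and *Tssk2* (ENSMUSG00000045521) occupies chr16:17898637-17900024, both on the plus strand and both with 1 exon, and 2983 bases separate them. Over 1048 aligned coding bases, 859 were identical (82.0%). The other 14 pairs of members were between 61.4% and 66.9% identical, and none of them shared a run of 50 bases. The longest run that *Tssk1* and *Tssk2* share is 113 bases of coding sequence, bases 371 to 483 counted from the start codon, and it covers the catalytic core of the kinase. In the older build NCBIM37 it lies at chr16:17894816-17894928 in *Tssk1* and at chr16:17899198-17899310 in *Tssk2*. The capitals mark the codons for His-Arg-Asp, the catalytic loop (codons 134 to 136), and for Asp-Phe-Gly, which holds the magnesium ion of ATP (codons 154 to 156).
*Tssk1* and *Tssk2*: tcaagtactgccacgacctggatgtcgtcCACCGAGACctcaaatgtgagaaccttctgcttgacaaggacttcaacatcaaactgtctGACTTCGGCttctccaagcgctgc

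Of the 50-base windows of the *Tssk1* transcript, 125 of 1400 (8.93%) occur unchanged in *Tssk2*. In *Ccer1*+/+ replicate 2 the deposited values were 6649.31 for *Tssk1* and 13117.69 for *Tssk2*, which add up to the whole number 19767, and in the other 5 libraries both values were whole. Reads that fall inside the shared stretches cannot be assigned to either gene from their sequence alone, so both values carry this uncertainty.

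The promoters of the pair share a longer run than those of any other pair of members. RefSeq promoter windows (build GRCm38.p6) were matched for 5 of the 6 genes, all except *Tssk5*. The 100 bases before the start of *Tssk1*, *Tssk2* and *Tssk6* are shown because *Tssk1* and *Tssk2* are neighbors whereas *Tssk2* and *Tssk6* are the members with the highest levels. Capitals mark matches to the motifs described next, on either strand.
*Tssk1*, chr16:17894103-17894202, plus strand: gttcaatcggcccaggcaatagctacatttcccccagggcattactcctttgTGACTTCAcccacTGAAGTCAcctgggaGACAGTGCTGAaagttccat
*Tssk2*, chr16:17898537-17898636, plus strand: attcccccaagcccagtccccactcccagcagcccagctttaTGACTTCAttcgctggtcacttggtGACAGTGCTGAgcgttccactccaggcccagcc
*Tssk6*, chr8:69902084-69902183, plus strand: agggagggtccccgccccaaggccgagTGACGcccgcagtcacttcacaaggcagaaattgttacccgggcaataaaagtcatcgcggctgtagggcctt

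The cyclic AMP response element TGACGTCA, which CREM and CREB proteins bind, was searched on both strands in the 250 bases before each start, and it was found in 508 of 32851 promoters (1.55%) and in no member. Its core TGACG was found in 5836 promoters (17.8%) and, among the members, in *Tssk6* alone. TGACTTCA, which differs from the full element at 1 base and was picked after the sequences had been read, was found in 429 promoters (1.31%). It lay 48 to 41 bases before the start of *Tssk1*, again in reverse at 35 to 28 bases, and 58 to 51 bases before the start of *Tssk2*. The longest run common to the *Tssk1* and *Tssk2* windows was GACAGTGCTGA, 11 bases, which was present in 6 promoters of the table (0.0183%), whereas the other pairs of members shared runs of 7 or 8 bases. These matches describe the letters only, since no factor binding was measured in these testes.

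The other members are scattered. *Tssk3* (ENSMUSG00000000411) lies on chr4:129489008-129491730, minus strand, with 2 exons. *Tssk4* (ENSMUSG00000007591) lies on chr14:55643651-55652539, plus strand, with 2 annotated transcripts, and *Tssk5* (ENSMUSG00000060794) on chr15:76371958-76375191, minus strand, with 8 exons. *Tssk6* (ENSMUSG00000047654) has 1 exon at chr8:69902184-69903518, plus strand, and its end overlaps *Ndufa13*, a gene for a subunit of mitochondrial complex I on the opposite strand, by 375 bases. Of the 50-base windows of *Tssk6*, 326 of 1284 (25.4%) are shared with *Ndufa13*. The deposited values of *Tssk6* were not whole in any library, and in 6 of 6 libraries the value of *Tssk6* and that of *Ndufa13* added up to a whole number. The library protocol describes no step that keeps the strand, so reads that lie wholly within the shared bases may not be assignable to either gene. The *Ndufa13* values ran from 580.78 to 1012.46 where those of *Tssk6* ran from 7543.22 to 11438.54. In the RefSeq annotation *Tssk3* also overlaps *Fam229a* by 541 bases and *Tssk4* overlaps *Tm9sf1* by 156 bases, and the values of both kinases were whole in all 6 libraries.

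The libraries held between 15970289 and 19621550 counts. *Ccer1* (ENSMUSG00000047025) stood at 439, 610 and 529 CPM (library counts brought to the same depth by TMM) in *Ccer1*+/+ replicates 1, 2 and 3 and at 82.1, 93.0 and 88.3 CPM in the *Ccer1*-/- libraries, which separates the genotypes as labelled (log2 fold change -2.58, SE 0.15, edgeR adjusted p = 7.35e-04). *Ccer1*+/+ replicate 1 stood apart from its group. Its mean correlation in log2 CPM over all genes was 0.988 with the *Ccer1*-/- libraries and 0.968 with the other *Ccer1*+/+ libraries, and its offset from the latter followed transcript GC content across 14460 genes (Spearman's rho = -0.68, genes not being independent). Each result is given with it, and without it where the call differs. Markers of testis cells were detected, and epididymal markers were near 0 (at most 0.121 CPM). The marker sums overlapped between genotypes for spermatogonia (89.1 to 111 CPM over 6 libraries), spermatocytes (5358 to 6534), round spermatids (1105 to 1308), Sertoli cells (136 to 229), Leydig cells (867 to 1783), peritubular myoid cells (26.2 to 112), macrophages (3.16 to 17.2) and red blood cells (27.6 to 62.9). Peritubular myoid markers were lowest in replicate 3 of both genotypes (26.2 CPM in *Ccer1*+/+ and 27.1 CPM in *Ccer1*-/-), against 71.0 to 112 CPM in the other libraries. Macrophage markers were lowest there too (3.67 and 3.16 CPM, against 14.9 to 17.2 CPM).

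All 6 members were detected in every library, over a wide range of levels. To compare genes, CPM was divided by the length of the longest annotated transcript (1280 to 1688 bases). *Tssk2* was highest, at 452 CPM per kb over 6 libraries (lowest 370, highest 585), and it ranked 111th among 14460 genes with a length. *Tssk6* followed at 402 CPM per kb (296 to 530) and *Tssk1* at 282 (264 to 310), so these genes were all within the top 1.65% of transcripts. *Tssk3* reached 155 CPM per kb (148 to 166) and *Tssk4* 76.0 (68.6 to 88.5). *Tssk5* stood far below at 7.22 CPM per kb (5.89 to 9.46), 10.5 times under *Tssk4*, and ranked 6547th. The order was the same in 6 of 6 libraries, although the ranges of *Tssk2* and *Tssk6* and those of *Tssk6* and *Tssk1* overlapped. The mean of *Tssk2* was 1.12 times that of *Tssk6*, which is less than the spread of either gene over the libraries. Both genes were measured in the same libraries, and within them the ratio of *Tssk6* to *Tssk2* in CPM ran from 0.770 to 0.928. Since a whole testis was sampled, fewer spermatids and less RNA per spermatid cannot be told apart in any of these values.

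**Figure D1:**
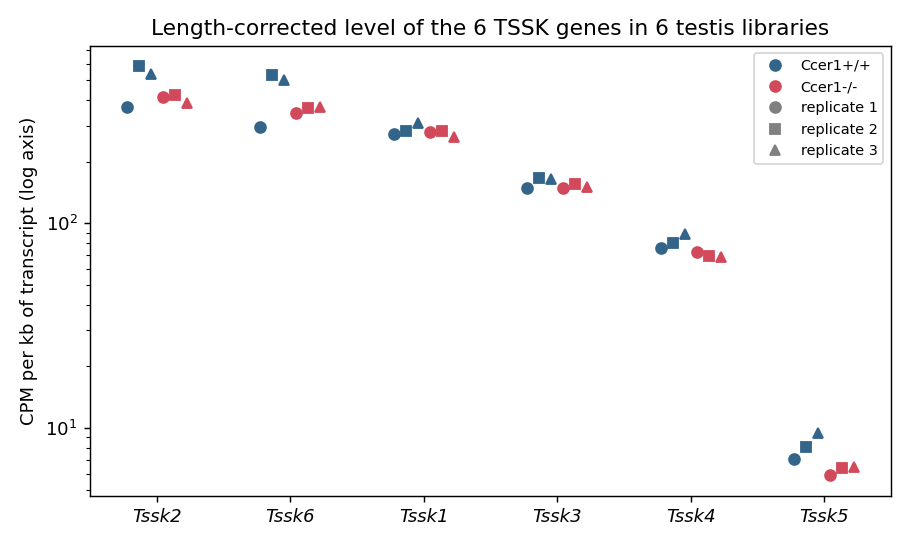
Level of each TSSK gene in CPM per kb of transcript (log axis), with 1 point per library, blue for *Ccer1*+/+ and red for *Ccer1*-/-, and marker shape for the replicate number. The levels step down from *Tssk2* (370 to 585) to *Tssk5* (5.89 to 9.46), and the gap between *Tssk4* and *Tssk5* is the widest.

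None of the 6 members passed the test between genotypes. All 6 fold changes were below 0, with a median log2 value of -0.25 beside 0.039 over all genes tested, where 44.6% of genes were below 0 and 55.4% above. The median of the members was -0.44 without *Ccer1*+/+ replicate 1 and -0.16 after a spline on GC content and length. Called at an adjusted p under 0.05 in edgeR's quasi-likelihood test with Benjamini-Hochberg adjustment over all genes were 0 of 6 members, beside a background of 0.00661% called lower and 0% called higher, that is, *Ccer1* alone. At an unadjusted p under 0.05 the count was also 0 of 6, beside 1.27% of genes lower and 1.62% higher, and DESeq2 called 0 of 6 (background 0.0264% lower and 0.00661% higher). Unadjusted edgeR p values were 0.0609 (*Tssk5*), 0.0897 (*Tssk4*), 0.122 (*Tssk2*), 0.184 (*Tssk6*), 0.523 (*Tssk1*) and 0.535 (*Tssk3*). The edgeR adjusted p of 0.786 below is common to *Tssk2*, *Tssk4*, *Tssk5* and *Tssk6*, so it does not rank them. In 2 of 6 members, *Tssk4* and *Tssk5*, the *Ccer1*-/- libraries lay below all *Ccer1*+/+ libraries, beside 3.14% of all genes.

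*Tssk1* was measured at 396, 411 and 449 CPM in *Ccer1*+/+ replicates 1 to 3 and at 405, 408 and 383 CPM in *Ccer1*-/- replicates 1 to 3. The groups overlapped, with means of 419 ± 27.3 and 398 ± 13.8 CPM (SD, n = 3 each). The log2 fold change was -0.072 (SE 0.11, 95% interval -0.32 to 0.17; edgeR adjusted p = 0.852).

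*Tssk2* was measured at 513, 811 and 746 CPM in *Ccer1*+/+ and at 575, 585 and 534 CPM in *Ccer1*-/- testes. Replicate 1 of *Ccer1*+/+ was the lowest library of all, below every *Ccer1*-/- library, and replicates 2 and 3 were the highest. The means were 690 ± 157 and 565 ± 27.1 CPM (SD, n = 3 each), and the log2 fold change was -0.29 (SE 0.17, 95% interval -0.67 to 0.095; edgeR adjusted p = 0.786).

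*Tssk3*, which is required for male fertility in the mouse, was measured at 190, 212 and 210 CPM in *Ccer1*+/+ and at 190, 199 and 193 CPM in *Ccer1*-/- testes. The groups overlapped, with replicate 1 of both genotypes close to 190 CPM, and the log2 fold change was -0.071 (SE 0.11, 95% interval -0.32 to 0.18; edgeR adjusted p = 0.859). As for *Tssk2*, replicate 1 of *Ccer1*+/+ was the lowest library, here by a margin smaller than the printed digits, and replicates 2 and 3 were the highest. Of the 6 members, *Tssk3* varied least, by 0.16 on the log2 scale from its lowest to its highest library.

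*Tssk4* was measured at 129, 136 and 149 CPM in *Ccer1*+/+ and at 122, 118 and 116 CPM in *Ccer1*-/- testes, and the groups did not overlap. Means were 138 ± 10.5 and 118 ± 3.13 CPM (SD, n = 3 each), with a log2 fold change of -0.22 (SE 0.12, 95% interval -0.48 to 0.042; edgeR adjusted p = 0.786).

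*Tssk5*, the rarest member, was measured at 10.7, 12.2 and 14.3 CPM in *Ccer1*+/+ and at 8.91, 9.71 and 9.77 CPM in *Ccer1*-/- testes, again without overlap. The log2 fold change was -0.39 (SE 0.18, 95% interval -0.80 to 0.022; edgeR adjusted p = 0.786). Behind these values stood 145 to 234 counts per library, so counting alone gave a coefficient of variation of 6.54% to 8.30%, more than the 5.08% seen between the *Ccer1*-/- libraries and less than the 14.6% seen between the *Ccer1*+/+ libraries.

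*Tssk6* was measured at 395, 707 and 668 CPM in *Ccer1*+/+ and at 464, 487 and 495 CPM in *Ccer1*-/- testes. As for *Tssk2*, replicate 1 of *Ccer1*+/+ was the lowest library and replicates 2 and 3 the highest. The means were 590 ± 170 and 482 ± 16.5 CPM (SD, n = 3 each), and the log2 fold change was -0.29 (SE 0.20, 95% interval -0.75 to 0.17; edgeR adjusted p = 0.786). *Ndufa13*, which shares bases with *Tssk6*, was measured at 33.0, 62.5 and 49.7 CPM in *Ccer1*+/+ and at 35.7, 39.5 and 38.9 CPM in *Ccer1*-/- testes, so the same *Ccer1*+/+ library was its lowest.

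As single values, *Tssk4* and *Tssk5* gave p = 0.1 in a two-sided exact permutation test of their CPM, the smallest p that 3 libraries against 3 allow, and the other 4 members gave an exact p = 0.4.

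**Figure D2:**
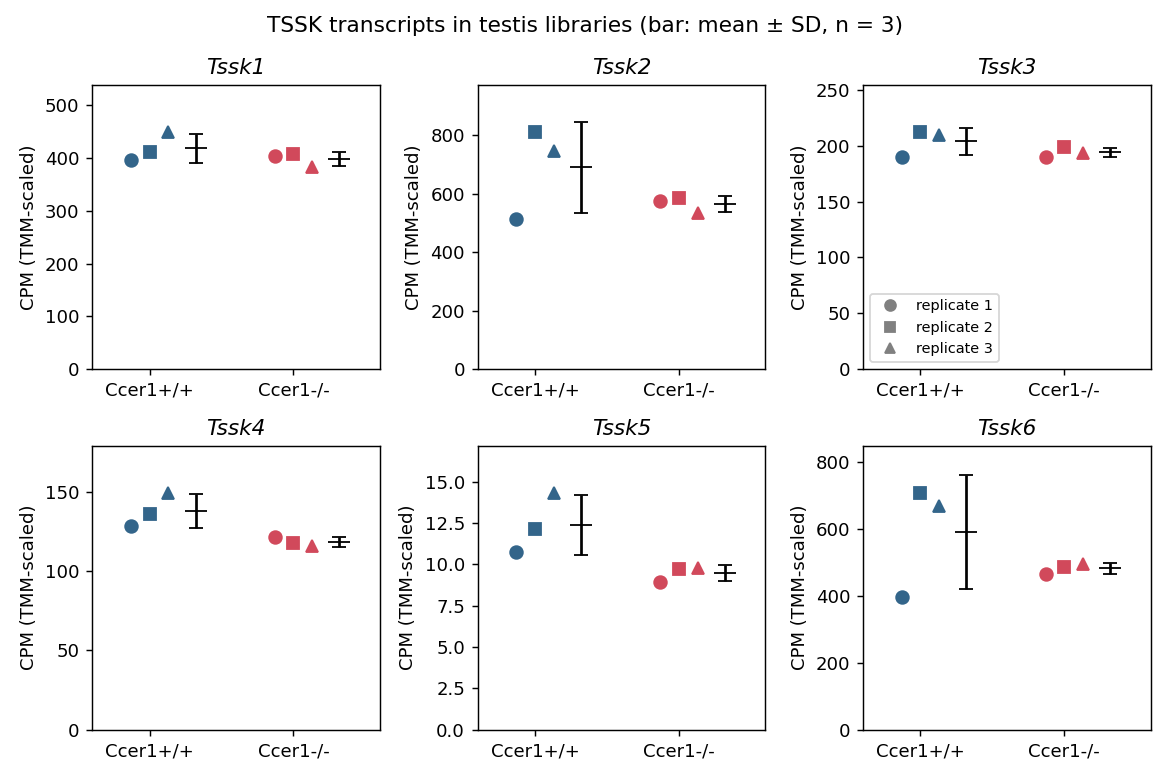
CPM of each TSSK gene (vertical axis from 0) by genotype. Points are libraries, shapes are replicate numbers, and bars are the mean ± SD of 3 libraries. Replicate 1 of *Ccer1*+/+ lies below all *Ccer1*-/- libraries for *Tssk2* (513 CPM) and *Tssk6* (395 CPM). It does so for *Tssk3* (190 CPM) too, by a margin smaller than the printed digits. The genotypes are separate for *Tssk4* and *Tssk5*.

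The *Ccer1*+/+ libraries varied more than the *Ccer1*-/- libraries. For *Tssk2* and *Tssk6* the coefficient of variation was 22.7% and 28.8% among *Ccer1*+/+ libraries and 4.79% and 3.42% among *Ccer1*-/- libraries, whereas counting alone gave 0.873% to 1.15%. *Ccer1*+/+ replicate 1 was lower than the mean of replicates 2 and 3 by a log2 difference of -0.80 for *Tssk6* and -0.60 for *Tssk2*. Among all genes these differences stood at percentiles 4.14 and 9.64. For *Tssk1*, *Tssk3*, *Tssk4* and *Tssk5* the difference was between -0.30 and -0.12, and the median over all genes was 0.068.

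Without *Ccer1*+/+ replicate 1, 4 of 6 members were called lower in *Ccer1*-/- testes by edgeR, beside a background of 12.5% of genes called lower and 9.21% called higher. *Tssk6* fell by 0.58 on the log2 scale (SE 0.071, adjusted p = 0.00358) and *Tssk2* fell by 0.53 (SE 0.076, adjusted p = 0.00489) in that edgeR test. *Tssk5* fell by 0.56 (SE 0.15, edgeR adjusted p = 0.0378) and *Tssk4* fell by 0.34 (SE 0.084, edgeR adjusted p = 0.0253). *Tssk1* (-0.18, SE 0.078, edgeR adjusted p = 0.135) and *Tssk3* (-0.19, SE 0.073, edgeR adjusted p = 0.101) did not pass. This comparison rests on 2 *Ccer1*+/+ libraries, and the one left out stood apart in expression over all genes. Leaving out any of the other 5 libraries gave 0 members called. The study also measured *Tssk6* in testes by qRT-PCR, normalized to beta-actin. There it found no significant difference between genotypes and described the transcript as likely intact.

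GC content moved with the offset of that library, and the members differ in it. The transcript of *Tssk6* holds 64.9% GC, at percentile 99.6 of all genes, and the others hold 52.6% to 54.8%, where the median gene holds 50.3%. When a spline on GC content and length was removed from each library, the log2 fold change of *Tssk6* was -0.10 (95% interval -0.38 to 0.18) in place of -0.29, while that of *Tssk2* was -0.23, that of *Tssk4* -0.22 and that of *Tssk5* -0.33. No member was called in that fit either, beside a background of 0.0138% lower and 0% higher. The part of GC content in the *Tssk6* values beyond this was not tested.

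**Figure D3:**
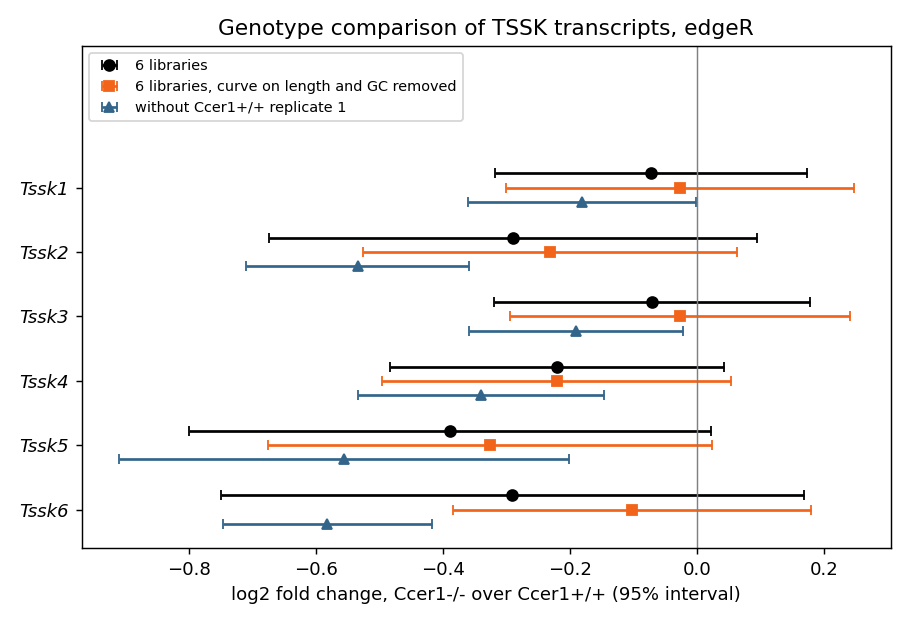
Log2 fold change, *Ccer1*-/- over *Ccer1*+/+, with its 95% interval for each TSSK gene in edgeR, from 6 libraries (black), from 6 libraries after a spline on GC content and length was removed (orange), and without *Ccer1*+/+ replicate 1 (blue). The black and orange intervals include 0 for every gene, and the blue ones, which are not adjusted for the number of genes, lie below 0, with estimates from -0.18 for *Tssk1* to -0.58 for *Tssk6*.

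The members did not all vary alike across the libraries. After each gene was centred on its own mean over 6 libraries, the root mean square difference of log2 CPM was 0.053 between *Tssk1* and *Tssk3*, 0.078 between *Tssk1* and *Tssk4* and 0.091 between *Tssk2* and *Tssk6*. It was 0.20 between the neighbors *Tssk1* and *Tssk2*, and the widest value was 0.26, between *Tssk1* and *Tssk6*. Among 8757 candidates, *Tssk6* was the 491st nearest gene to *Tssk2*, and *Tssk2* was the 360th nearest to *Tssk6*.

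The ratio of CPM between members, in which transcript length is the same in every library, shows where the neighbors part. The ratio of *Tssk2* to *Tssk1* was 1.295, 1.97 and 1.66 in *Ccer1*+/+ replicates 1, 2 and 3 and 1.42, 1.44 and 1.40 in the *Ccer1*-/- libraries. The *Ccer1*-/- ratios thus lay inside the *Ccer1*+/+ range. The ratio of *Tssk6* to *Tssk2* moved less, with a range of 0.770 to 0.895 in *Ccer1*+/+ and of 0.807 to 0.928 in *Ccer1*-/- testes. The ratio of *Tssk4* to *Tssk3* was 0.679, 0.641 and 0.712 in *Ccer1*+/+ and 0.641, 0.592 and 0.600 in *Ccer1*-/- replicates, where the genotypes missed overlap by less than the printed digits. It was not tested. Together the 6 genes took 0.167%, 0.228% and 0.212% of the counts of the *Ccer1*+/+ libraries and between 0.172% and 0.184% of those of the *Ccer1*-/- libraries, so the genotypes overlapped.

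**Figure D4:**
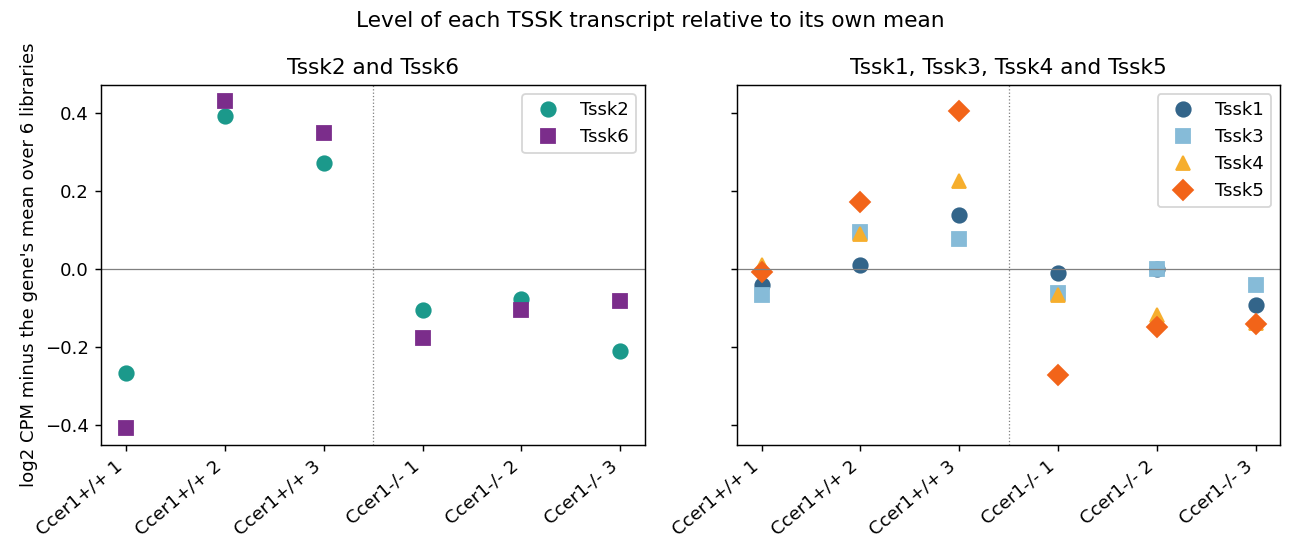
Log2 CPM of each TSSK gene minus its own mean over 6 libraries (vertical axis), by library. *Tssk2* and *Tssk6*, on the left, are lowest in *Ccer1*+/+ replicate 1 and highest in replicates 2 and 3. *Tssk3*, on the right, has the same lowest and highest libraries over a smaller span (0.16). *Tssk1* (0.23) and *Tssk4* (0.37) also span less than the genes on the left, and *Tssk5* (0.68) does not.

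By the same measure, the genes most like each member over 6 libraries were found, 3 a member, among the 8757 with a symbol and a mean of at least 10 CPM. For *Tssk2* they were *Irgc1* (0.011), *Pik3r2* (0.021) and *Aldoart2* (0.026). *Irgc1* was measured at 1258, 1985 and 1823 CPM in *Ccer1*+/+ and at 1427, 1454 and 1328 CPM in *Ccer1*-/- testes, and so had the low first *Ccer1*+/+ library of *Tssk2*. For *Tssk6* they included *Rilpl2* (0.035) and *Pfdn5* (0.036), a prefoldin subunit. *Pfdn5* was measured at 209, 354 and 339 CPM in *Ccer1*+/+ and at 249, 254 and 252 CPM in *Ccer1*-/- testes, again lowest in replicate 1 of *Ccer1*+/+. The nearest to *Tssk1* were *Akt2* (0.023), *Lmtk2* (0.023) and *Psmf1* (0.026), and the nearest to *Tssk3* were *Atmin* (0.021), *Ss18* (0.022) and *Tulp2* (0.023). Those of *Tssk4* were *Gm17359* (0.026), *Iqck* (0.027) and *Htt* (0.028), and those of *Tssk5* were less close, *Dnahc10* (0.056), *Nat6* (0.056) and *Ldoc1l* (0.058).

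Of 12 genes that encode substrates, scaffolds, chaperones or regulators linked to TSSK proteins, 0 were called by edgeR in either direction, 0 had an unadjusted p under 0.05 and DESeq2 called 0. Of all genes, edgeR called 0.00661% lower and 0% higher, and DESeq2 0.0264% lower and 0.00661% higher. At an unadjusted p under 0.05 the shares were 1.27% lower and 1.62% higher. Their log2 fold changes were below 0 in 7 genes and above 0 in 5, with a median of -0.0082. When library totals alone set the scale, 3 were below 0 and 9 above, with a median of 0.027. *Tsks*, the scaffold of TSSK1 and TSSK2, was measured at 589, 740 and 750 CPM in *Ccer1*+/+ and at 676, 647 and 633 CPM in *Ccer1*-/- testes, which overlapped (log2 fold change -0.088, SE 0.13). *Tsacc*, the co-chaperone of TSSK6, gave -0.035 (SE 0.13), and *Odf2* gave -0.0093 (SE 0.11) at 4576 to 5217 CPM over the 6 libraries. With 6 libraries none of these partners passed the test.

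The smallest p values of this group belonged to *H2ax*, *Creb1*, *Pdpk1* and *Hsp90aa1*. *H2ax*, a histone variant whose phosphorylated form in mouse spermatids requires TSSK6, was measured at 48.5, 71.1 and 68.6 CPM in *Ccer1*+/+ and at 50.2, 51.1 and 54.5 CPM in *Ccer1*-/- testes, and here too replicate 1 of *Ccer1*+/+ was the lowest library (log2 fold change -0.27, SE 0.17, edgeR adjusted p = 0.786). *Creb1*, a transcription factor of the cyclic AMP response, was measured at 11.0, 9.15 and 9.31 CPM in *Ccer1*+/+ and at 11.0, 11.0 and 12.5 CPM in *Ccer1*-/- testes, where the groups missed overlap by a margin smaller than the printed digits (0.23, SE 0.17). It was the only partner without overlap in the higher direction, beside 5.2% of all genes. *Pdpk1*, a kinase that phosphorylates the activation loop of many related kinases, gave 0.24 (SE 0.18), and *Hsp90aa1*, a gene for HSP90, gave 0.22 (SE 0.19). The other partners, *Spag16*, *Crem*, *Ppp1cc*, *Hsp90ab1* and *Hspa8*, lay between -0.068 and 0.13. Without *Ccer1*+/+ replicate 1, edgeR called 3 of the 12, where it called 12.5% of all genes lower and 9.21% higher, so the share was near the background. These were *H2ax* (-0.50, edgeR adjusted p = 0.00893) and *Tsks* (-0.26, edgeR adjusted p = 0.0309), lower, and *Pdpk1* (0.41, edgeR adjusted p = 0.0127), higher.

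Among 10 other kinase genes expressed in testis, edgeR and DESeq2 called 0, and *Hipk4* alone had an unadjusted p under 0.05 (lower), beside 1.27% of all genes lower and 1.62% higher. The background of genes called was 0.00661% lower and 0% higher for edgeR, and 0.0264% lower and 0.00661% higher for DESeq2. The log2 fold changes of these 10 genes were above 0 in 5 and below 0 in 5, with a median of -0.014 that turned to 0.019 with library totals and to 0.017 after the spline. *Hipk4*, a kinase required for shaping the sperm head in the mouse, was measured at 159, 250 and 213 CPM in *Ccer1*+/+ and at 146, 162 and 148 CPM in *Ccer1*-/- testes, which overlapped through replicate 1 of *Ccer1*+/+ (log2 fold change -0.45, SE 0.17, edgeR adjusted p = 0.786). *Mak*, a kinase of male germ cells and cilia, gave 0.29 (SE 0.18), *Stk33* gave 0.24 (SE 0.18) and *Tesk1* gave -0.17 (SE 0.14). For *Camk4*, *Csnk2a2*, *Gsk3a*, *Prkaca*, *Stk31* and *Tesk2* the values lay between -0.16 and 0.37. Without *Ccer1*+/+ replicate 1 edgeR called 4 of the 10, 3 lower and 1 higher, beside 12.5% of all genes lower and 9.21% higher. These were *Hipk4* (-0.68, adjusted p = 0.00479), *Tesk1* (-0.36, adjusted p = 0.0164) and *Gsk3a* (-0.35, adjusted p = 0.0308), lower, and *Stk31* (0.76, edgeR adjusted p = 0.0235), higher.

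Markers of elongating spermatids, the cells in which TSSK proteins act, separated the genotypes in part. Their 9 transcripts summed to 18815, 25411 and 25269 CPM in *Ccer1*+/+ replicates 1, 2 and 3 and to between 15890 and 17206 CPM in the *Ccer1*-/- libraries, without overlap. This separation lay in *Tnp1*, *Tnp2*, *Prm1* and *Prm2*, which the study itself singled out and which are therefore no independent evidence. These summed to 10678, 16302 and 16473 CPM in *Ccer1*+/+ and to between 7174 and 8079 CPM in *Ccer1*-/- libraries. The other 5 markers summed to 8137, 9108 and 8797 CPM in *Ccer1*+/+ and to 9126, 9018 and 8715 CPM in *Ccer1*-/- libraries, which overlapped. Within these 5, *Akap4* and *Smcp* were higher in *Ccer1*-/- testes without overlap, and *Odf1*, *Gapdhs* and *Oaz3* overlapped. Over all 9 markers, 4 were lower and 2 higher without overlap, beside 3.14% and 5.2% of all genes. Unlike *Tssk2* and *Tssk6*, the sum over all 9 was higher in *Ccer1*+/+ replicate 1 than in any *Ccer1*-/- library. The sum of the other 5 was instead lowest of all in *Ccer1*+/+ replicate 1 (8137 CPM), as *Tssk2* and *Tssk6* were. Of the 9 fold changes, 6 were below 0 and 3 above, and the median log2 fold change was -0.20. In edgeR 4 of 9 were lower and 1 higher at an unadjusted p under 0.05, beside 1.27% and 1.62% of all genes. At the adjusted p 0 passed, beside 0.00661% of all genes lower and 0% higher. DESeq2 called 3 of the 9, *Tnp1*, *Prm1* and *Prm2*, all lower, beside 0.0264% of all genes lower and 0.00661% higher. Without *Ccer1*+/+ replicate 1 edgeR called 6 lower and 1 higher, beside 12.5% and 9.21% of all genes. The 6 lower were *Tnp1*, *Tnp2*, *Prm1*, *Prm2*, *Odf1* and *Gapdhs*, and the higher was *Akap4*. None of the 9 was at 0 in any library. With 6 libraries, the lowest values were those of *Tnp1* (-1.73), *Prm1* (-0.90), *Prm2* (-0.84) and *Tnp2* (-0.73), which encode the transition proteins and protamines that replace histones. The other 5 markers went both ways. The flagellar gene *Akap4* stood at 0.30, *Oaz3* at 0.11 and *Smcp* at 0.099, while *Odf1* stood at -0.20 and *Gapdhs* at -0.16. For 8 round spermatid markers the median was -0.088, and for spermatocyte and spermatogonial markers it was 0.13 and 0.12, with 0 called by edgeR or DESeq2 in each list. At an unadjusted p under 0.05, 2 spermatocyte markers were lower in edgeR and no marker of the remaining lists passed, beside the same 1.27% lower and 1.62% higher. Without *Ccer1*+/+ replicate 1, edgeR called 2 spermatocyte markers lower and 3 higher, and 2 round spermatid markers lower and 1 higher, beside the same 12.5% and 9.21% of all genes. Somatic and blood markers gave medians of -0.021 (Sertoli), 0.22 (Leydig), 0.029 (peritubular myoid), -0.063 (macrophage) and -0.28 (red blood cell), also with 0 called by edgeR, with or without that library, and 0 by DESeq2, and no epididymal marker passed the filter. The part of these cells in the TSSK values was not tested.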

How the data were processed

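RNA was measured in 3 *Ccer1*+/+ and 3 *Ccer1*-/- testis libraries, grouped by their titles. As deposited, the files hold an estimated count per gene that the authors did not scale between libraries. The tools listed in the submitters' processing notes are StringTie 1.3.1, HISAT2 (without a version), Bowtie2 2.2.8 and fastp 0.18.0, with build GRCm38. The way reads were counted and the strand setting were not given in the sources used here. A further 5 Hi-C samples were not analysed here.

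Estimated counts were rounded and tested in R 4.3.3 with edgeR 4.0.16: filterByExpr (minimum count 10, minimum total 15), TMM scaling, and a robust quasi-likelihood fit with a two-sided F test, no covariate, and Benjamini-Hochberg adjustment over 15139 genes (threshold 0.05). A standard error was taken as the size of the log2 fold change divided by the root of its F statistic. Symbols were found for 20314 genes. Older symbols were matched for *Ccer1*, *H2ax*, *Tsacc* and *Adgre1*. Lengths, GC content and coding sequences came from NCBIM37, and gene positions from RefSeq on GRCm38. Depth gives the counting error stated beside *Tssk5*, *Tssk2* and *Tssk6*, which covers sampling of reads only.

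Named were all TSSK genes, *Ccer1*, the TSSK partner list and the list of other testis kinases (values for those with p under 0.05 and, to reach 4, the next smallest p, the rest as ranges) and, for each member, the 3 genes nearest in centred log2 CPM, of which 1 is not reported here. *Tsks*, *Tsacc* and *Odf2* were added as direct partners after their values had been seen, as were the genes called without *Ccer1*+/+ replicate 1 and the named spermatid markers. The members and the 13 gene lists were chosen with earlier results of these data known. Alternatives were other scalings, the DESeq2 1.42.0 test, other filters, a threshold of 0.1, a replicate block, a spline (5 degrees of freedom) on length and GC content, and each library left out in turn. The elongating spermatid sum was split after the data were seen. The procedure was tested on simulated data.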

Additional observations from a re-analysis of the deposited data

How the results depend on the processing

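Over 16 alternatives, all 6 members kept a log2 fold change below 0: -0.18 to -0.023 for *Tssk1*, -0.53 to -0.21 for *Tssk2*, -0.19 to -0.026 for *Tssk3*, -0.34 to -0.18 for *Tssk4*, -0.56 to -0.32 for *Tssk5* and -0.58 to -0.097 for *Tssk6*. Among these alternatives, the threshold of 0.1 reuses the main estimates and could not change a sign. The call changed under 1 alternative, leaving out *Ccer1*+/+ replicate 1. With each library left out in turn, the range was -0.53 to -0.21 for *Tssk2*, -0.34 to -0.21 for *Tssk4*, -0.56 to -0.32 for *Tssk5* and -0.58 to -0.20 for *Tssk6*, with edgeR adjusted p values for those members as low as 0.00489, 0.0253, 0.0378 and 0.00358, and the counts called ranged from 0 to 4 TSSK genes, 0 to 3 partners and 0 to 4 other kinases. The upper counts all came from leaving out *Ccer1*+/+ replicate 1, where edgeR called 12.5% of all genes lower and 9.21% higher. The cause was not tested. The replicate numbers were not used in the main fit. The correlation of deviations between libraries of the same number was 0.065, 0.35 and 0.47 for numbers 1, 2 and 3. *Ccer1*-/- replicates 2 and 3 were closest to the *Ccer1*+/+ library of their own number, and *Ccer1*-/- replicate 1 was closest to *Ccer1*+/+ replicate 2 (0.27). Whether the numbers mark a shared batch was not tested. With the number as a replicate block, 0 TSSK genes were called, and *Tssk2* stood at -0.26 and *Tssk6* at -0.25. Scaling moved the median of all genes from 0.039 to 0.072 with library totals, 0.0088 with upper quartile factors and -9e-04 with DESeq2 size factors, and that of the TSSK genes from -0.25 to -0.22, -0.29 and -0.30.

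Depth limits *Tssk5* most, at 145 to 234 counts. Sequence shared by *Tssk1* and *Tssk2*, and by *Tssk6* and *Ndufa13*, limits how far those values can be separated. With 3 libraries a genotype, the 95% intervals of the 6 members reached as low as -0.80 (*Tssk5*) and as high as 0.18 (*Tssk3*).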
